A study of Homo sapiens with 8 samples.

Results

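The genes described here are 9 markers used to recognise neuroendocrine differentiation: CHGA, CHGB, SCG2, SCG3, SCG5, SYP, INSM1, NCAM1 and UCHL1. They are picked out by name, by a rule that uses no measured value, although the set was drawn up with earlier results of these arrays known. Each was represented by 1 probe set with a single gene symbol, so 9 genes of 22395 were followed. Of these, 8 had a mean log2 signal over all arrays above the 25th percentile of genes (2.51) and entered the tests beside 16796 genes in all. SCG2, with a mean of 2.26, did not pass that filter and is given as values only. SCG3 passed only through VCaP, since its mean outside that line was 1.45.

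The study measured total RNA from prostate cancer cell lines on Affymetrix whole-transcript arrays 48 hours after transfection with siRNA against DNAPK (siDNAPK, which the array titles call si7DNAPK) or with a non-targeting siRNA (control, siNTC). DNAPK is a kinase of broken-end DNA repair, and PRKDC encodes its catalytic subunit. VCaP, PC3, DU145 and C4-2B each gave 1 siDNAPK array and 1 control array, so 8 arrays form 4 pairs. VCaP and DU145 were grown in DMEM and PC3 and C4-2B in RPMI1640. Line and medium thus cannot be told apart where VCaP or DU145 is set against PC3 or C4-2B. Each line is an established line grown as a single culture per siRNA, with no replicate culture of either siRNA. A p-value therefore measures how much the siRNA response varied between lines, and not the spread between cultures. All values are the authors' log2 RMA signals, which have no detection call here, so whether the lowest readings differ from probe background was not tested. In RNA from whole cultures, fewer cells expressing a gene and less of its RNA in every cell cannot be told apart.

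Neuroendocrine cells store peptide hormones and amines in dense-core granules and release them on stimulation. The granins (CHGA, CHGB, SCG2, SCG3 and SCG5) are acidic proteins or helpers of that granule compartment, SYP is a membrane protein of small secretory vesicles, and INSM1 is a transcription factor of the lineage. NCAM1 is a cell adhesion molecule and UCHL1 a ubiquitin hydrolase abundant in neurons. Most prostate adenocarcinomas hold only scattered cells with these markers, whereas small-cell prostate cancer expresses them widely. Outside the nervous and endocrine systems many such genes are kept silent by the repressor REST, which binds a DNA element in or near them.

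ERG and KLK2 had the readings known of the VCaP and C4-2B labels, whereas KLK3 did not in VCaP. No marker given here identifies PC3 or DU145, and other markers of line identity are not described. ERG, which is driven by a gene fusion in VCaP, read 8.65 with siDNAPK and 8.57 with control in VCaP, and at most 3.56 elsewhere. The prostate protease gene KLK2 read 11.56 and 11.37 in VCaP on the siDNAPK and control arrays, and 10.31 and 10.70 in C4-2B. KLK3, which encodes PSA, read 4.75 and 4.46 in VCaP against 10.24 and 10.12 in C4-2B, a low reading for a line known to make PSA. The 7 immune markers summed to 18.3 to 22.2 log2 units over the siDNAPK arrays and 19.4 to 22.4 over the control arrays, and the 8 fibroblast and endothelial markers to 19.6 to 22.9 and 19.4 to 22.5. PRKDC itself was lower with siDNAPK in each line, by a log2 difference of -0.62 in VCaP, -1.99 in PC3, -1.08 in DU145 and -2.53 in C4-2B. The targeted transcript thus stood at 65.0% of control in VCaP, the least depleted line, against 25.1% in PC3, 47.2% in DU145 and 17.4% in C4-2B. Among all 16796 genes its difference ranked 1442 from the lowest in VCaP, 3 in PC3, 105 in DU145 and 1 in C4-2B, and its mean over the lines, -1.56 ± 0.86 (SD, n = 4), did not pass (limma, adjusted p = 0.688).

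In line levels, SCG3, CHGA, CHGB, SCG5, SYP, INSM1 and NCAM1 were each higher in VCaP than in each of the other 3 lines, and UCHL1 was instead highest in DU145. SCG3 separated the lines most sharply, by over 6 log2 units. SCG2 was near the lower end of the array's range in every line.

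SCG3, or secretogranin III, is a granule membrane protein that binds cholesterol and holds CHGA in the forming granule. Its log2 signal in VCaP was 8.04 with siDNAPK and 7.85 with control. The corresponding values were 1.32 and 1.34 in PC3, 1.65 and 1.67 in DU145, and 1.32 and 1.37 in C4-2B, so all readings outside VCaP lay below the filter level. The level in VCaP exceeded that in PC3 by 6.62 (95% interval 6.25 to 6.98), in DU145 by 6.29 (5.92 to 6.65) and in C4-2B by 6.60 (6.24 to 6.97), with limma adjusted p-values of 9.99e-07, 1.41e-06 and 1.62e-06. No difference among the remaining lines passed, the closest being DU145 minus C4-2B at 0.32 (limma, adjusted p = 0.167) and PC3 minus DU145 at -0.33 (limma, adjusted p = 0.154). In the RefSeq promoter window of SCG3, 250 bases before to 50 after the start, 2 sequence parts of the REST element, TTCAGCACC and GGACAGCGC, both occur downstream of the start. The window is chr15:51681253-51681552 on the plus strand of GRCh38.p14, it is shown because it holds both parts, and the capitals mark them.
SCG3: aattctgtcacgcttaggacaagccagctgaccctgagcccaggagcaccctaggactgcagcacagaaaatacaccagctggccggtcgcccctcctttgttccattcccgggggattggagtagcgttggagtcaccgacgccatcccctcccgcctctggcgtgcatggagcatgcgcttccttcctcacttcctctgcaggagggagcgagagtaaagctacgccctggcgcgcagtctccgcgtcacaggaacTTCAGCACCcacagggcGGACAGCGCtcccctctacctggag
The left part starts at base 9 and the right part at base 26, counting the first transcribed base as 1, with 8 bases between them. Searching both strands of all 35116 promoter windows of the same length, TTCAGCACC occurred in 0.376%, GGACAGCGC in 0.581% and both together in 0.0199%, or 7 windows. Both together were counted in any order, strand or spacing, so this is not the share of windows with a whole REST element. Whether the spacing in SCG3 is that of a working element was not tested. The match describes the letters of the reference genome and was not a measurement of binding.

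CHGA, or chromogranin A, is the most used serum and tissue marker of neuroendocrine tumours and a core protein of the granule. In VCaP it read 4.26 with siDNAPK and 5.44 with control. PC3 gave 2.85 and 3.01, DU145 2.85 and 2.90, and C4-2B 2.85 and 3.04, so both VCaP arrays lay above every other array. The VCaP level was higher by 1.92 than in PC3, 1.98 than in DU145 and 1.91 than in C4-2B, with limma adjusted p-values of 0.00113, 0.00100 and 0.00173. The remaining lines differed from each other by at most 0.07, and their order was within the spread between arrays. The CHGA promoter holds the cyclic AMP response element TGACGTCA, through which CREB-family factors are known to act on this gene. It is printed for that element, in capitals, and covers chr14:92922900-92923199 on the plus strand of GRCh38.p14.
CHGA: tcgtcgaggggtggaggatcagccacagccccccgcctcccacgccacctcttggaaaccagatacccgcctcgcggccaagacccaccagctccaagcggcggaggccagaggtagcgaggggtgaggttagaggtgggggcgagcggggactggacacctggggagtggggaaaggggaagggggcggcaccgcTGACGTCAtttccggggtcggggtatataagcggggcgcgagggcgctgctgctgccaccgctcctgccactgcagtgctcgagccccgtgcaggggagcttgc
The element starts 54 bases before the first transcribed base, and the same 8 letters occurred in 1.85% of promoter windows. RefSeq windows were at hand for 5 of the 9 genes. None of the 3 motifs occurred in those of SCG5, SYP or UCHL1.

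CHGB, a second chromogranin of the same granules, had a like pattern. It read 4.45 with siDNAPK and 5.65 with control in VCaP, against 2.65 and 2.01 in PC3, 2.68 and 2.18 in DU145, and 2.82 and 2.78 in C4-2B. VCaP lay above the others by 2.72, 2.62 and 2.25 in that order of lines, with limma adjusted p-values of 0.00127, 0.00158 and 0.00430. SCG5, also called 7B2, is the chaperone of the prohormone convertase PC2. Its values were 3.83 with siDNAPK and 4.86 with control in VCaP, 3.18 and 3.29 in PC3, 3.19 and 2.95 in DU145, and 3.17 and 2.94 in C4-2B. The gap was smaller than for the chromogranins, at 1.11 over PC3, 1.27 over DU145 and 1.29 over C4-2B, with limma adjusted p-values of 0.0216, 0.0124 and 0.0141. SCG2, or secretogranin II, the precursor of secretoneurin, read 2.71 with siDNAPK and 2.30 with control in VCaP, and between 2.03 and 2.40 on the other arrays. It thus gave no sign above the low end of the range in any line, although its highest reading was also a VCaP array.

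SYP (synaptophysin), the vesicle membrane marker most often paired with CHGA in pathology, read 4.38 with siDNAPK and 4.50 with control in VCaP. It read 2.52 and 2.62 in PC3, 2.58 and 2.72 in DU145, and 2.75 and 2.76 in C4-2B. The difference was 1.87 over PC3, 1.79 over DU145 and 1.68 over C4-2B, with limma adjusted p-values of 6.38e-05, 8.10e-05 and 1.94e-04. NCAM1 (CD56) showed the smallest separation among the 8 genes tested. It read 3.42 and 3.49 in VCaP with siDNAPK and control, and 2.35 to 2.70 on the other arrays, all near the filter level. VCaP nonetheless lay 0.93, 0.93 and 0.90 above PC3, DU145 and C4-2B, with limma adjusted p-values of 0.00637, 0.00618 and 0.00903.

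INSM1, a zinc-finger factor needed for endocrine cell differentiation, was also highest in VCaP. VCaP gave 4.60 with siDNAPK and 5.25 with control, PC3 2.75 and 2.96, DU145 3.35 and 3.45, and C4-2B 3.47 and 3.68. VCaP exceeded PC3 by 2.07, DU145 by 1.53 and C4-2B by 1.35, with limma adjusted p-values of 1.01e-04, 4.72e-04 and 0.00127. PC3 was also lower than C4-2B, with a difference of -0.72 (limma, adjusted p = 0.0183), where 17.7% of all genes were called lower in PC3. PC3 minus DU145 was -0.54 (limma, adjusted p = 0.0601), and DU145 minus C4-2B was -0.18 (limma, adjusted p = 0.521), so the 3 lower lines formed no clear steps apart from the outer pair.

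UCHL1 had its own order. It read 9.27 with siDNAPK and 9.10 with control in DU145, 4.89 and 5.36 in VCaP, 3.21 and 3.45 in PC3, and 3.63 and 3.61 in C4-2B. VCaP minus DU145 was -4.06 (95% interval -4.52 to -3.60, limma adjusted p = 6.55e-06), and 21.6% of all genes were called lower in VCaP in that contrast. VCaP was above PC3 by 1.79 and above C4-2B by 1.50 (limma, adjusted p = 2.83e-04 and 0.00106), while PC3 minus C4-2B was -0.29 and did not pass (limma, adjusted p = 0.297). The order was thus DU145, VCaP, then C4-2B and PC3 together. DU145 and VCaP shared a medium, as did C4-2B and PC3, so line and medium cannot be told apart across that last step. DU145 was called higher than each of the other lines in 5.63% of all genes, and UCHL1 was the only one of the 8 genes tested in that class. Among its relatives, neither of which was called highest in DU145, UCHL3 lay at 7.44 to 8.62 and UCHL5 at 5.98 to 6.66 on all 8 arrays.

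**Figure D1:**
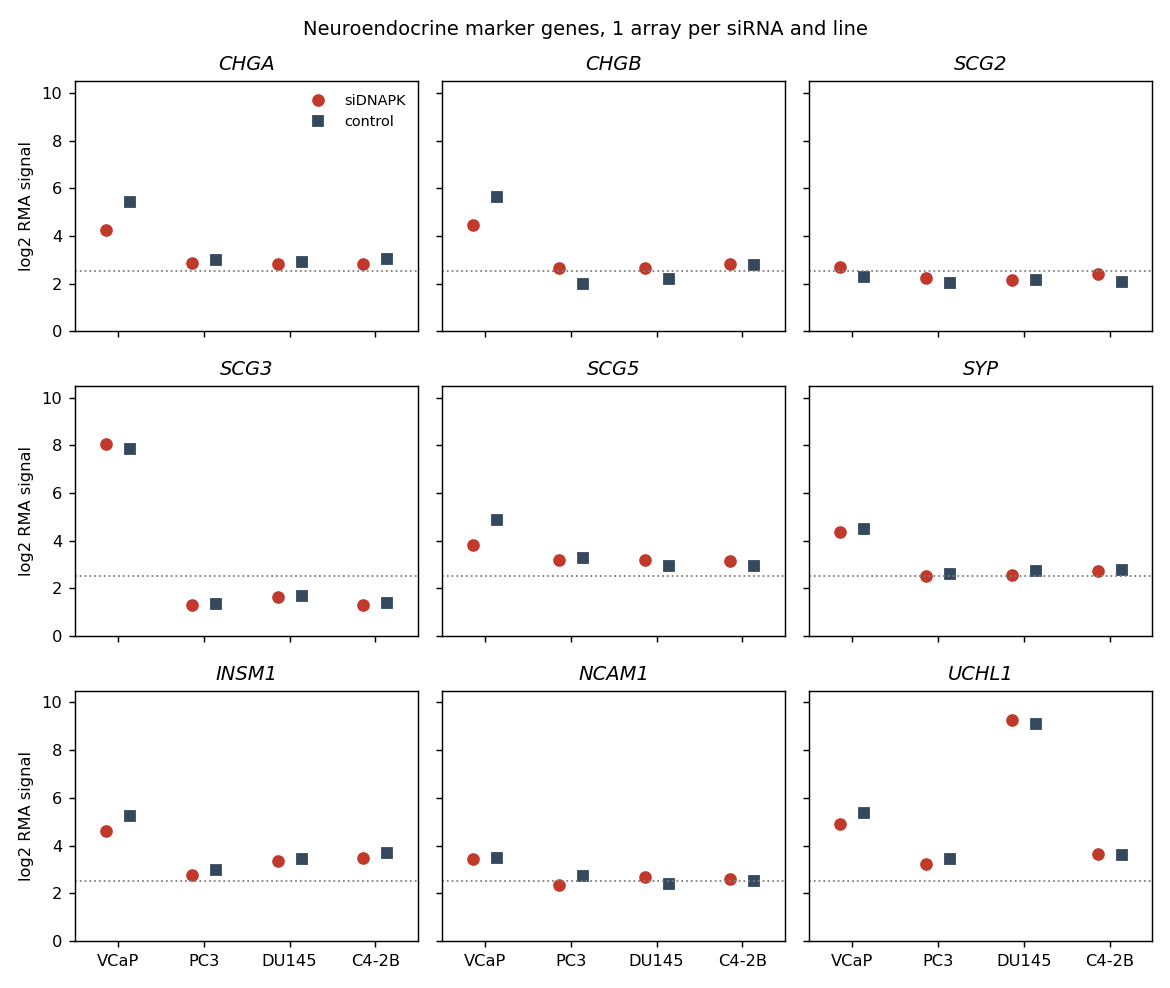
Log2 RMA signal of the 9 marker genes on each of the 8 arrays, with siDNAPK (circles) left of control (squares) in each line, 1 array per point, and the filter level of 2.51 as a dotted line. SCG3, CHGA, CHGB, SCG5, SYP, INSM1 and NCAM1 were highest on the VCaP arrays, UCHL1 was highest in DU145 at 9.27 and 9.10, and SCG2 stayed between 2.03 and 2.71.

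The number of genes called is large between any pair of lines and is the measure against which these counts read. An F test over the 4 lines called 62.6% of all genes and each of the 8 marker genes tested, and without the VCaP arrays it called 2 of them. Leaving out any 1 line, that test still called 8181 to 9397 of all 16796 genes. VCaP was called higher than PC3 in 8 of the 8, against 19.6% of all genes, higher than DU145 in 7 of 8, against 20.2%, and higher than C4-2B in 8 of 8, against 16.7%. The 7 genes called higher in VCaP than in each other line belong to a class that held 7.55% of all genes. With no expression filter, when SCG2 is tested too, the count was 7 of 9, against 1314 of all 22395 genes. Among PC3, DU145 and C4-2B, only UCHL1 (in both contrasts with DU145) and INSM1 (PC3 against C4-2B) were called. Of all genes, 30.5% were called in either direction for PC3 minus DU145, 36.2% for PC3 minus C4-2B and 34.5% for DU145 minus C4-2B.

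**Figure D2:**
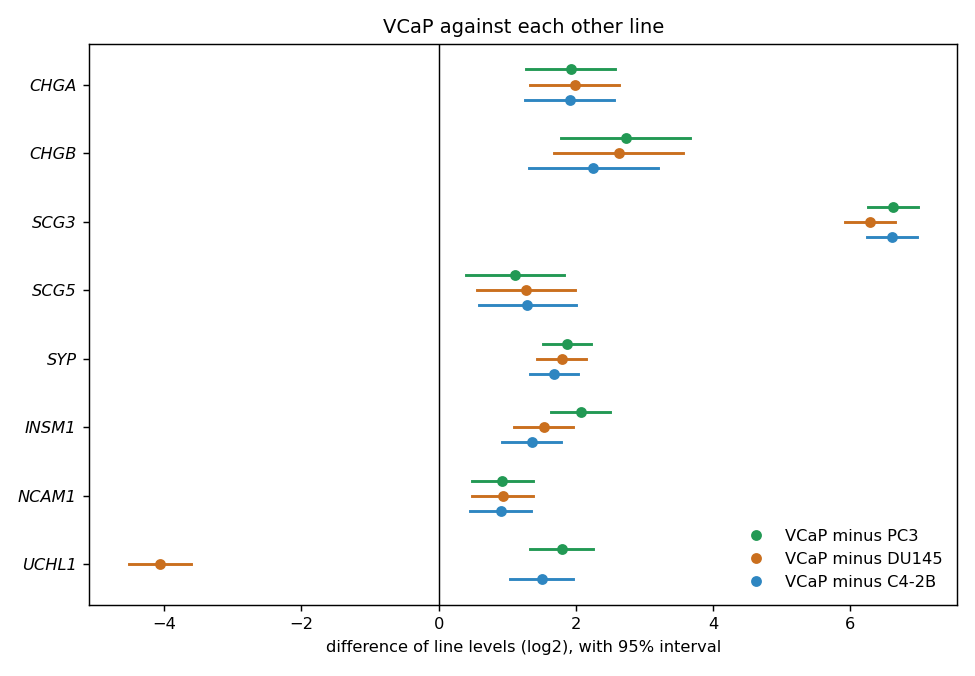
Difference in line level (log2, VCaP minus each other line, limma estimate from 2 arrays per line with the mean siRNA effect removed) for the 8 genes that passed the filter, with bars for the 95% interval. SCG3 lies between 6.29 and 6.62, the other granule, vesicle and lineage genes between 0.90 and 2.72, and UCHL1 at -4.06 against DU145.

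With siDNAPK, the widest differences of these genes were read in VCaP. There, CHGB differed by -1.20, CHGA by -1.18 and SCG5 by -1.03 (-0.99 with cyclic loess) between siDNAPK and control, leaving 43.4%, 44.1% and 49.0% of the control signal. INSM1 followed at -0.65 (63.7% of control) and UCHL1 at -0.48. SCG3, SYP and NCAM1, also called higher in VCaP than in each other line, had differences of 0.19, -0.13 and -0.07, so the granins did not move together. SCG2 had 0.41 from low readings. With 1 array per siRNA in VCaP these are differences between a pair of cultures and have no test. A difference below -1 was seen there in 2.42% of all genes, the SD of all differences was 0.462 against 0.288 to 0.334 in the other lines, and PRKDC was depleted least. Whether the wider spread in VCaP bears on the granin values was not tested.

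In the other lines the differences were smaller, and most came from low readings. In C4-2B the 9 genes ranged from -0.21 to 0.31. In DU145 the highest value was 0.49, for CHGB, and in PC3 it was 0.64, also for CHGB, whose control arrays in those lines read 2.18 and 2.01. UCHL1, the only member with a high signal outside VCaP, differed by 0.17 in DU145, against an SD of 0.334 over all genes in that line. CHGA, INSM1 and SYP read lower with siDNAPK in each of the 4 lines, as did 5.89% of all genes. SCG2 read higher in each of the 4 lines, by 0.03 to 0.41 from low readings, and the share of all genes doing so was not computed.

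**Figure D3:**
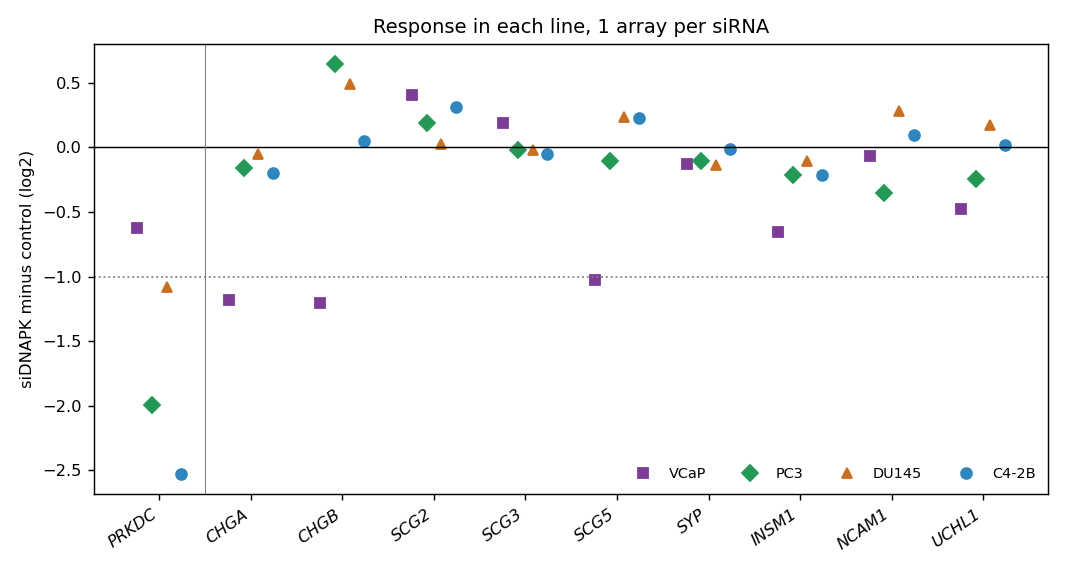
Difference between siDNAPK and control (log2) for PRKDC and the 9 marker genes, 1 point per line and no error bar because each point is 1 pair of arrays, with -1 as a dotted line. CHGA, CHGB and SCG5 lie below -1 in VCaP alone (SCG5 at -0.99 with cyclic loess), where PRKDC has its smallest difference at -0.62.

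Over the 4 lines, none of the marker genes passed the test for a response to siDNAPK. The limma fit with the line as a block called 0 of 16796 genes (0% of all genes), while 1208 (7.19%) had an unadjusted p under 0.05, none of them a marker gene. CHGA had a mean difference of -0.40 ± 0.53 (SD, n = 4 lines, limma adjusted p = 0.688), or -0.14 without VCaP. INSM1 had -0.30 ± 0.24 (limma, adjusted p = 0.688) with a 95% interval of -0.60 to 0.0076, or -0.18 without VCaP. SYP had -0.09 ± 0.06 (limma, adjusted p = 0.833), the narrowest spread of the set. CHGB averaged -0.00498 ± 0.84, a mean of opposite values that turned to 0.39 without VCaP, and SCG5 averaged -0.17 ± 0.60, which turned to 0.12 (limma, adjusted p = 0.996 and 0.857 over the 4 lines). SCG3 (0.03), NCAM1 (-0.00834) and UCHL1 (-0.13) had adjusted p-values of 0.964, 0.991 and 0.821 by limma, and without VCaP they stood at -0.0293, 0.0108 and -0.0162. With 4 pairs, an exact 2-sided sign-flip test cannot give a p below 0.125.

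Whether VCaP responded differently from the other lines was tested by setting its difference against the mean of theirs. With 1 VCaP pair, the p-values and intervals rest on the spread among the other lines and limma's prior. The spread of a VCaP difference does not enter, and over all genes the SD was 0.462 in VCaP against 0.288 to 0.334 elsewhere. CHGB had -1.60 (95% interval -2.32 to -0.88), SCG5 -1.15 (-1.76 to -0.53) and CHGA -1.04 (-1.59 to -0.50), with unadjusted p-values of 0.00154, 0.00361 and 0.00317 by limma. None passed with adjustment over all genes (limma, adjusted p = 0.158, 0.188 and 0.178), which does not show that VCaP responded like the other lines. The same contrast called 0 genes (0% of all genes) and had 8.89% of all genes lower in VCaP at an unadjusted p under 0.05, so a low unadjusted p was common in this line. INSM1 had -0.47 (limma, adjusted p = 0.389), UCHL1 -0.46 (0.461), SCG3 0.22 (0.686), NCAM1 -0.08 (0.931) and SYP -0.04 (0.948).

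Other genes of the secretory pathway were read beside the markers. Of 25 granule and exocytosis genes past the filter that are not among the 9, 7 were called higher in VCaP than in each other line (7.55% of all genes): SCGN, CADPS, UNC13A, RIMS2, SNAP25, PTPRN2 and VGF. CADPS, with a mean of 2.25 outside VCaP, passed the filter only through that line. In the same list 3 genes were called highest in PC3 (6.15% of all genes), 2 in DU145 (5.63%) and 1 in C4-2B (5.14%), and RAB27A was called lower in VCaP than in each other line (6.45% of all genes). SCGN (secretagogin, a calcium sensor of endocrine cells) read 7.79 with siDNAPK and 8.95 with control in VCaP, and 2.43 to 2.96 elsewhere. CADPS, which primes dense-core granules for release, read 7.92 and 7.44 in VCaP and 2.10 to 2.39 elsewhere, and the priming factor UNC13A 8.59 and 8.29 against 2.95 to 3.67. In VCaP, SCGN differed by -1.16 between siDNAPK and control and the granule calcium sensor SYT4 by -1.92, whereas CADPS had 0.49, UNC13A 0.30 and the SNARE gene SNAP25 0.28. SYT4 was shared with C4-2B, where it read 9.72 with siDNAPK and 9.15 with control, and it did not separate VCaP from that line (VCaP minus C4-2B -1.23, limma adjusted p = 0.128). RAB3A, a GTPase of secretory vesicles with the largest mean difference of the list, had 0.48 ± 0.34 (SD, n = 4 lines, limma adjusted p = 0.688). Over the 4 lines limma called 0 of the 25 (at an unadjusted p under 0.05, 1 was higher and 2 were lower), the median mean difference was -0.07 against 0.03 for all genes, and in VCaP 13 of 25 lay below 0, where 50.35% of all genes did.

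Among 12 peptide hormone genes past the filter, NPY (neuropeptide Y) was the only one called higher in VCaP than in each other line, a share near that of all genes (7.55%). It read 6.42 with siDNAPK and 7.70 with control in VCaP and 2.56 to 2.87 elsewhere, and its VCaP difference of -1.28 resembled those of CHGA and CHGB in size. GAL, the galanin precursor, was instead present in 3 lines, at 6.11 and 6.16 in VCaP, 6.71 and 6.06 in DU145 and 7.67 and 7.40 in C4-2B with siDNAPK and control, against 3.44 and 3.81 in PC3. Over the 4 lines limma called 0 of the 12 hormone genes, with 1 lower at an unadjusted p under 0.05. The median mean difference was -0.04.

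Among 13 transcription factors of the neuroendocrine and neural lineages other than INSM1, 2 were called higher in VCaP than in each other line (7.55% of all genes), 3 in PC3 (6.15%), 1 in DU145 (5.63%) and 1 in C4-2B (5.14%). NKX2-2, which acts in endocrine pancreas, read 4.09 with siDNAPK and 4.86 with control in VCaP, with line means of at most 2.95 elsewhere. MYT1, a neural zinc-finger factor, read 5.19 and 5.76 in VCaP and 2.88 to 3.44 elsewhere. Both read lower with siDNAPK in VCaP, by -0.78 and -0.57. NKX2-1, a lung and thyroid factor also seen in small-cell cancers, was high in DU145 alone, at 7.45 and 7.29, the same line that held UCHL1. ONECUT2, a homeobox factor of lethal prostate cancer, had a mean difference of 0.33 ± 0.07 and a value above 0 in each line, and MYCN had 0.32 ± 0.40 (SD, n = 4 lines, limma adjusted p = 0.688 and 0.692). Limma called 0 of the 13, with 1, ONECUT2, higher at an unadjusted p under 0.05.

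Neuronal genes outside the 9 gave 4 of 17 called higher in VCaP than in each other line (7.55% of all genes): INA, BEX1, MAP2 and NEFH. NEFH, with a mean of 2.47 outside VCaP, passed the filter only through that line. In this list 2 genes were called highest in PC3 (6.15% of all genes), 2 in C4-2B (5.14%) and 1 in DU145 (5.63%). INA, a neuronal intermediate filament, read 9.83 and 9.81 in VCaP with siDNAPK and control, 6.33 and 6.21 in DU145, and 2.81 to 2.97 in PC3 and C4-2B. NEFL, the light neurofilament subunit, was highest in PC3, at 9.97 and 10.05, with 8.06 and 8.42 in VCaP, so neuronal transcripts were not limited to the line with granins. BEX1 read 5.67 and 6.37 in VCaP and 2.08 to 3.08 elsewhere. Over the 4 lines limma called 0 of 17, with 1 higher at an unadjusted p under 0.05 and a median mean difference of 0.06. TUBB3, which encodes a neuronal tubulin, had the only VCaP difference of this list past 1, at 1.11.

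REST, the repressor of many of these genes, was the only member of its group of 11 called lower in VCaP than in each other line, as were 6.45% of all genes, a share close to 1 of 11. It read 6.73 with siDNAPK and 6.83 with control in VCaP, against 7.45 and 7.39 in PC3, 7.55 and 7.54 in DU145, and 7.44 and 7.35 in C4-2B. The differences were -0.64, -0.76 and -0.61, with limma adjusted p-values of 0.0125, 0.00563 and 0.0178. SRRM4, a neural splicing factor known to act on the REST transcript, read 4.57 and 3.98 in VCaP and 2.48 to 3.27 elsewhere, and its relative SRRM3 4.52 and 4.31 against 3.04 to 3.17. Both were called higher in VCaP than in each other line, 2 of the 11 against 7.55% of all genes. REST hardly differed between siDNAPK and control, with values of -0.10 in VCaP, 0.06 in PC3, 0.02 in DU145 and 0.09 in C4-2B. Of the 13 regulators of lineage plasticity past the filter, 0 were called higher in VCaP than in each other line (7.55% of all genes). In that list 2 genes were called highest in PC3 (6.15% of all genes) and 1 in DU145 (5.63%). DNMT1 was called lower in VCaP than in each other line (6.45% of all genes). Over the 4 lines limma called 0 of the 11 genes of the REST group and 0 of the 13 regulators. At an unadjusted p under 0.05, 0 of the REST group and 2 of the regulators passed, 1 in each direction.

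**Figure D4:**
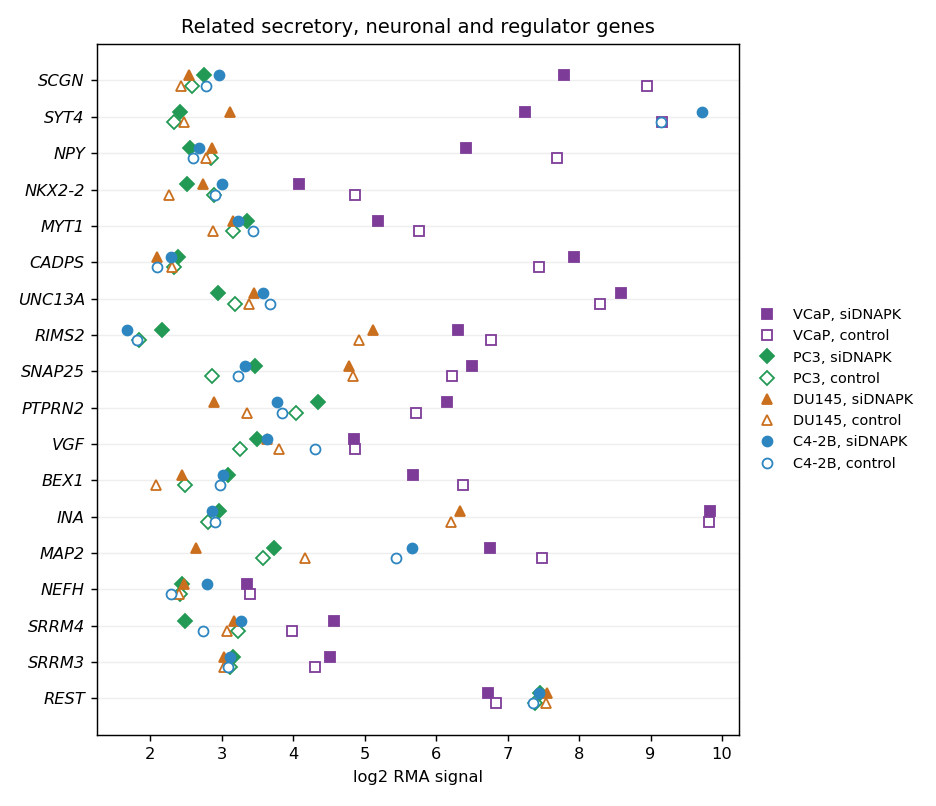
Log2 RMA signal of 18 related genes on each array, with filled symbols for siDNAPK and open symbols for control and 1 colour and shape per line. All but SYT4 and REST were drawn because they were called higher in VCaP than in each other line. From SCGN to SRRM3 the VCaP arrays therefore lie to the right by choice of genes, except for SYT4, where C4-2B joins them. REST lies to the left in VCaP at 6.73 and 6.83. Related genes that were highest in another line, such as NEFL in PC3, NKX2-1 in DU145 and GAL in C4-2B, are not drawn.

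The genes whose profile over the 8 arrays came closest to each marker were found by the mean absolute gap after centring every gene on its own mean, a description with no test, over arrays that share lines in pairs. For SCG3 they were ITM2A (gap 0.184 log2 units) and SSX3 (0.232). For CHGB they were RERG (0.195), whose VCaP arrays read 4.95 with siDNAPK and 6.39 with control, and MYT1 (0.217). For CHGA they were NOP53 (0.122) and FMOD (0.148), for SYP NRSN1 (0.109) and KMT5B (0.120), for INSM1 ZMYND8 (0.0992) and ZNF420 (0.117), and for SCG5 C2CD5 (0.120) and AQP12B (0.125). For UCHL1 the closest genes, BCHE (0.329) and TEX15 (0.352), lay farther away than those of the other markers listed here.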

How the data were processed

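The deposited table held log2 signals per probe set for 8 arrays, made by the authors with oligo and RMA (background correction, quantile normalisation and probe summary) per the submitters' processing notes, with no version. RMA makes array distributions alike, so differences are relative to the bulk of transcripts. Array medians were 2.94 to 2.99. The number of arrays limits the precision. Of 53617 probe sets, 23871 had 1 gene symbol, 1842 several and 27904 none here. Entrez identifiers gave current symbols (RefSeq, GRCh38.p14), and 22395 genes were each represented by the probe set of highest mean. Each of the 9 members had 1 such probe set. The filter required a mean above the 25th percentile (2.51) and left 16796 genes.

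Groups came from the labels. limma (version 3.58.1, R 4.3.3) was fitted over all genes with Benjamini-Hochberg adjustment, threshold 0.05, 2-sided: siDNAPK minus control with the line as a block (3 residual degrees of freedom, 7.55 with the prior), line levels with siRNA as a covariate (6 contrasts and an F test), and each line's difference against the other 3. The line pairs the arrays by the labels. Deviations from group means correlated at 0.864 to 0.918 within lines and at most 0.0135 between lines, which subtracting the means itself lowers. The fits were tested on simulated data. Within a line there is no test. Genes named are the 9 members, PRKDC, the 4 genes of each related list with the widest range between lines and the 2 with the largest mean difference, and the 2 closest profiles of each member whose line means span over 1. Not every gene taken by the rule is described. TUBB3, ERG, RAB27A, NEFH, BEX1, VGF, PTPRN2, SNAP25, RIMS2, UNC13A, REST and the motifs were chosen after values or sequences were seen. Members and lists were chosen with earlier results of these data known. Promoters are from RefSeq (GRCh38.p14).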

Additional observations from a re-analysis of the deposited data

Results flagged for a closer look

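The marker genes formed 27 sets of 4 values (4 siDNAPK arrays, 4 control arrays or 4 differences each). In 10 of them a value's gap to its nearest neighbour, as a share of the whole range, exceeded Dixon's 95% critical value. The nominal rate of about 1 in 20 is for independent sets, whereas these sets share arrays and line levels. The share over all genes was not computed, so the count is not measured against chance. All of the flagged values were those of VCaP. On the siDNAPK arrays they were CHGA at 4.26, CHGB at 4.45, SYP at 4.38, SCG3 at 8.04 and SCG5 at 3.83. On the control arrays they were CHGA at 5.44, SYP at 4.50 and SCG3 at 7.85. Among the differences between siDNAPK and control they were CHGA at -1.18 and SCG3 at 0.19. The SCG3 arrays of the other lines read 1.32 to 1.67, below the filter level, and their differences were -0.02, -0.02 and -0.05, so a VCaP value even of this size stood apart.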

How the results depend on the processing

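Median centring, cyclic loess, no expression filter and the mean of all probe sets changed no adjusted call and no direction of the 8 marker genes tested, nor did an intensity trend in the variance, which was run for the mean over lines and the line levels only. Each marker has 1 probe set, so averaging probe sets could not change its estimate or direction. Dropping the filter or adding the trend could not either, and under these settings only the p-values could move. With cyclic loess the VCaP difference of SCG5 was -0.9871, so 2 markers in place of 3 lay below -1 there. Under each of the settings above, 7 markers were called higher in VCaP than in each other line. Over all genes that count ran from 1203 with median centring to 1385 with the intensity trend. Scaling moved the median mean difference of all genes to 0.0133 with median centring and 0.0092 with cyclic loess, against 0.03. In the fit with no replicate block, which drops the pairing of arrays by line, the count of genes at an unadjusted p under 0.05 was 63 in place of 1208, and 0 of the marker genes were called either way. Leaving out 1 line at a time gave 0 marker genes called for the mean over lines (limma), and the number of markers called by the F test ran from 2 without VCaP to 8. The same F tests called 8181 to 9397 of all 16796 genes. Mean differences changed sign without VCaP for CHGB (0.39), SCG5 (0.12), SCG3 (-0.0293) and NCAM1 (0.0108), and without PC3 for NCAM1 (0.11), none of them called. Those over the left-out lines ran from -0.22 to 0.39 for CHGB, from -0.30 to 0.12 for SCG5, from -0.0293 to 0.05 for SCG3 and from -0.11 to 0.11 for NCAM1. Low signals limit SCG2, NCAM1 and the readings outside VCaP, since no detection call was used.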
